A study of Mus musculus with 8 samples.

Results

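The 10 genes examined here belong to the unfolded protein response, and they were measured in CD8+ T cells, the T cells that recognise antigen on MHC class I. They were taken by symbol from the deposited table: Ern1, Atf6, Xbp1, Hspa5, Hsp90b1, Pdia4, Sdf2l1, Dnajb9, Herpud1 and Sel1l. All 10 were found among the 29426 gene symbols of the table, and all 10 were among the 12313 genes tested. The study measured messenger RNA in 8 libraries of mouse spleen CD8+ T cells, in 4 groups of 2: mCre-MP, mCre-TN, WT-MP and WT-TN. MP and TN are subset labels of a flow-cytometric sort on CD8, CD4, CD44 and CD122; the design text writes VM where the titles write MP. mCre and WT are genotype labels. The series title joins Cre with miR-29, but the labels name neither the allele that mCre mice carried nor the promoter of the Cre. The age of the mouse behind each library is not given either; the protocol covers adult and neonatal spleens.

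The endoplasmic reticulum (ER) folds secreted and membrane proteins. When unfolded proteins build up there, sensors in its membrane switch on a programme of chaperones, disulphide-forming enzymes and degradation factors. IRE1 (encoded by Ern1) splices the Xbp1 messenger RNA into a form that encodes an active transcription factor, ATF6 is cut to release its own transcription factor domain, and PERK slows translation. In lymphocytes the IRE1-XBP1 branch is best known from antibody-secreting cells, and it is also engaged in effector CD8+ T cells. Counts per gene do not separate spliced from unspliced Xbp1, so sensor activity was not measured here.

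Promoter sequences are shown for those of the 10 members that hold one of the DNA elements linked to this response. The ER stress element is CCAAT, then 9 bases of any kind, then CCACG; its second form is ATTGG, 1 base, then CCACG; the XBP1/ATF6 element is TGACGTG. Both strands were searched in windows from 250 bases before to 50 bases after each gene's RefSeq start. A window was found for 9 of the 10 members; Atf6 was not matched. The 3 windows with a match are printed 5′ to 3′ on the strand of the gene, from RefSeq on GRCm38.p6, with matches in capitals. They lie at chr2:34771840-34772139 (plus strand, Hspa5), chr10:86705395-86705694 (minus strand, Hsp90b1) and chr8:94386179-94386478 (plus strand, Herpud1).
Hspa5: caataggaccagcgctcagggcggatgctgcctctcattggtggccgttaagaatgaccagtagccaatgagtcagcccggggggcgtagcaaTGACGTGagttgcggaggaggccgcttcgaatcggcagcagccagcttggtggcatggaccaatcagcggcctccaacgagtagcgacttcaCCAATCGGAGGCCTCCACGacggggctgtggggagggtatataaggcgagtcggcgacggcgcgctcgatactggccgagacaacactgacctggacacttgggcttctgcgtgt
Hsp90b1: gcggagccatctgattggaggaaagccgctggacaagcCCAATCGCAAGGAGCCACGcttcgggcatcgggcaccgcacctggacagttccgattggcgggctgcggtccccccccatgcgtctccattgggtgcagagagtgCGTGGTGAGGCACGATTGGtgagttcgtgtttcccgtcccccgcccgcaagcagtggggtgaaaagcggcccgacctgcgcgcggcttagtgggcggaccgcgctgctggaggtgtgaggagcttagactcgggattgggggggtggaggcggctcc
Herpud1: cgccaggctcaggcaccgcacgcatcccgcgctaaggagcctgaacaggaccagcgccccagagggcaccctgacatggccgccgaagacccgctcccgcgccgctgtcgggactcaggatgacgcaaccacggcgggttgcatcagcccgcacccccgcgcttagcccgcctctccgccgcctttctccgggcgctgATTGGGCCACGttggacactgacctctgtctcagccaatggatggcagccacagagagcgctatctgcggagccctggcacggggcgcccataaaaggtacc

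The Hspa5 window held 1 ER stress element, starting 65 bases before the start of transcription, and 1 XBP1/ATF6 element starting at −157. The Hsp90b1 window held 2 ER stress elements, a forward one at −212 and a reverse one at −107. The Herpud1 window held the second form at −52. No listed element overlapped another. Over all 32851 promoter windows, 0.119% held the ER stress element, 0.0365% its second form and 2.01% the XBP1/ATF6 element, against 2, 1 and 1 of the 9 member windows. The elements and the members were both taken for their link to this response, so that contrast is a description and not a test. A match describes letters and does not show binding. The windows of Ern1, Xbp1, Pdia4, Sdf2l1, Dnajb9 and Sel1l had none of these exact letters.

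**Figure D1:**
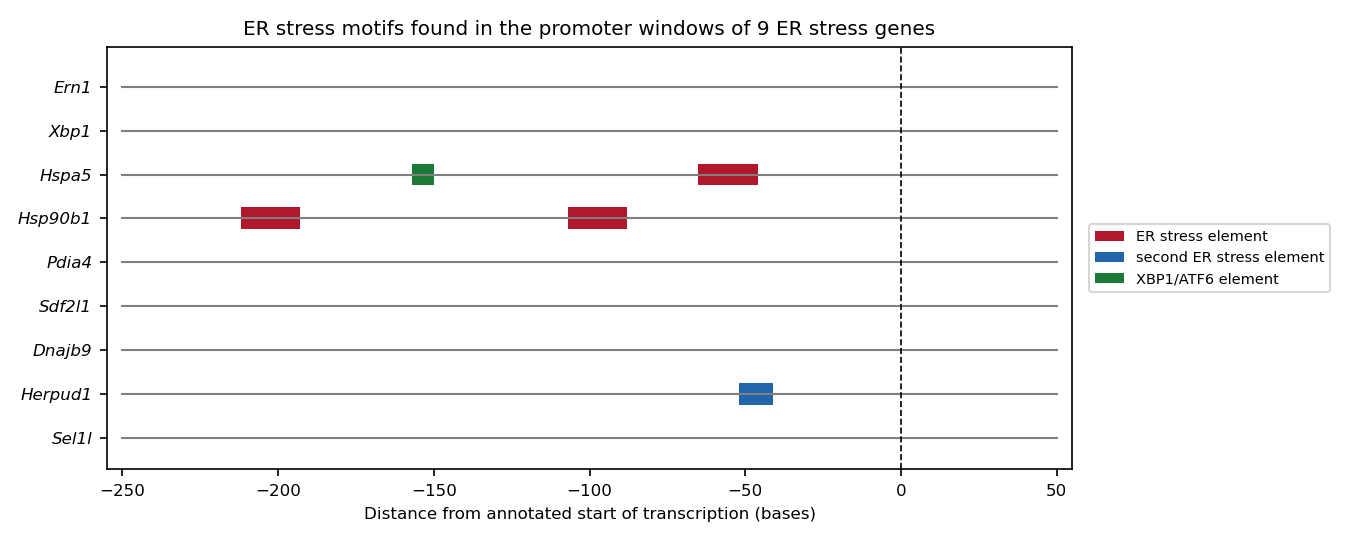
Positions of 3 ER stress motifs in the promoter windows of 9 members; the x axis is the distance in bases from the RefSeq start of transcription (dashed line), and each coloured box is a match. Matches lie in Hspa5, Hsp90b1 and Herpud1, and the other 6 windows are empty.

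Total counts ranged from 13479586 to 30057658 per library, and every member had at least 206 counts in every library. Cd44, used in the sort, averaged 158 CPM (reads of a gene scaled to its library's total) in mCre-MP and 14.6 CPM in mCre-TN, and 142 CPM in WT-MP and 14.8 CPM in WT-TN. The CD8 T cell genes Cd3e, Cd3d, Cd8a and Cd8b1 summed to between 3841 and 4281 CPM in each library. Markers of macrophages and monocytes were lower in mCre, and those of erythroid cells and platelets had their highest sums there; those values are given beside the genotype results.

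Most members had higher CPM in MP than in TN libraries in both genotypes. CPM is relative to the total of a library, so the RNA content per cell was not measured. Sdf2l1 and Atf6 differed most. The chaperone gene Hsp90b1 rose about as much as Atf6 in mCre (log2 fold changes 0.50 and 0.51) and less in WT (0.40 and 1.10). Hspa5, also a chaperone gene, rose by a smaller step, and Ern1, Sel1l and Dnajb9 did not pass the test in either genotype. In mCre, 6 of 10 members were called higher in MP at an adjusted p under 0.05 (edgeR quasi-likelihood test, Benjamini-Hochberg over 12313 genes), where 17.0% of all genes were. In WT, 7 of 10 were called higher, where 16.2% of all genes were. Among genes with a mean of at least 5 CPM, a level that each member exceeded, the shares of all genes called higher were 18.0% in mCre and 16.9% in WT. No member was called lower in MP in either genotype by edgeR, DESeq2 or voom, or at an unadjusted p under 0.05 in edgeR. The median log2 fold change of the 10 members was 0.25 in mCre and 0.26 in WT, and that of all genes was 0.0024 in mCre and −0.0019 in WT.

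With genotype as covariate, the 4 MP libraries were set against the 4 TN libraries. In that fit 7 of 10 members were called higher, against 23.2% of all genes. For 7 of 10 members each MP library also lay above each TN library, against 18.5% of all genes. The 2 sets hold the same 7 genes: Atf6, Xbp1, Hspa5, Hsp90b1, Pdia4, Sdf2l1 and Herpud1. Marker sums of plasma, NK, dendritic, CD4 T and B cells were higher in MP than in TN. Outside the NK list, each of those lists had only 1 or 2 genes called higher, and its other tested genes were not. The 7 plasma cell markers summed to 16.9 to 19.8 CPM in mCre-MP and 6.68 to 8.72 CPM in mCre-TN, and to 13.8 to 15.8 CPM in WT-MP and 4.36 to 8.43 CPM in WT-TN. Of the 4 tested, 1 was called higher in MP, Prdm1, which T cells also express; Tnfrsf17 was at 0 in each library, and Jchain reached no more than 1.72 CPM. NK cell markers, led by Eomes, which CD8+ T cells also express, summed to 190.0 to 211 CPM in mCre-MP and 31.6 to 38.6 CPM in mCre-TN, and to 223 to 235 CPM in WT-MP and 43.9 to 51.2 CPM in WT-TN. All 4 were called higher in MP in both genotypes. Dendritic cell markers summed to 36.7 to 38.4 CPM in mCre-MP and 7.90 to 9.03 CPM in mCre-TN, and to 39.6 to 40.8 CPM in WT-MP and 7.68 to 8.42 CPM in WT-TN, with 1 of 5 tested called higher in MP in each genotype, Itgax. CD4 T cell markers summed to 18.96 to 19.3 CPM in mCre-MP and 3.95 to 4.55 CPM in mCre-TN, and to 20.9 to 23.2 CPM in WT-MP and 3.55 to 4.24 CPM in WT-TN. Of the 3 tested, Zbtb7b and Ctla4 were called higher in MP in both genotypes and Foxp3 lower in WT; Cd4 itself reached no more than 0.37 CPM. B cell markers summed to 23.9 to 25.5 CPM in mCre-MP and 16.6 to 21.3 CPM in mCre-TN, and to 23.3 to 23.9 CPM in WT-MP and 19.2 to 20.8 CPM in WT-TN, with 1 of 4 tested called higher in each genotype, Cd22. The part of these cells in the subset differences was not tested. In bulk samples, a change in the share of cells that express a gene and a change in RNA per cell cannot be told apart.

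**Figure D2:**
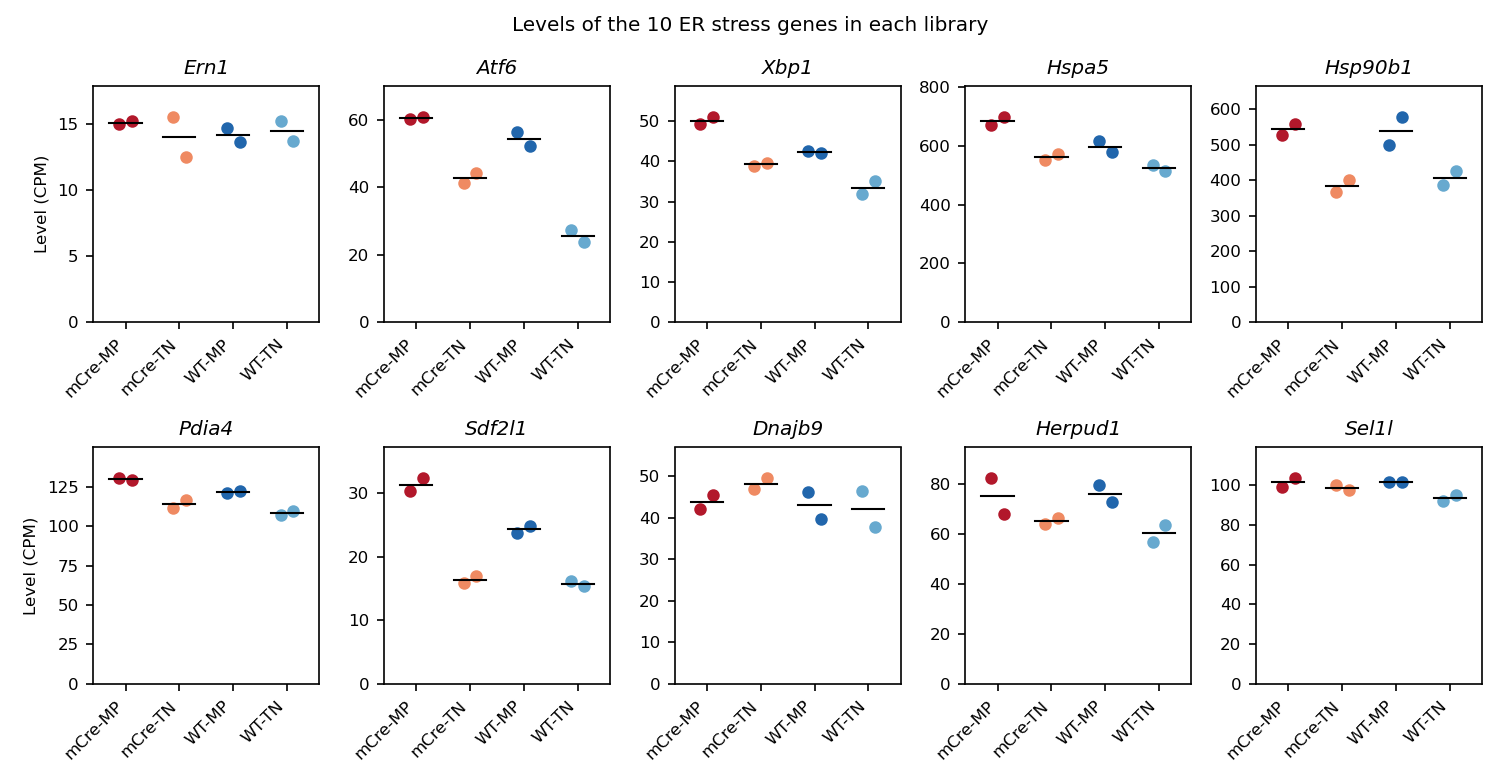
Level of each ER stress gene in each library, in CPM on a linear axis from 0; points are libraries (2 per group) and black lines are group means. The mCre-MP libraries hold the highest Xbp1, Atf6, Hspa5, Pdia4 and Sdf2l1 levels, whereas for Ern1 each group overlaps with the next in rank.

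Of the sensors, Ern1 (GRCm38 chromosome 11, 106394650 to 106487852, minus strand) was the least abundant member, also per kilobase of exon. It stood at 14.9 and 15.2 CPM in mCre-MP, 15.5 and 12.5 CPM in mCre-TN, 14.7 and 13.6 CPM in WT-MP, and 15.2 and 13.7 CPM in WT-TN. Every pair of neighbouring groups overlapped. The 95% interval of the MP over TN log2 fold change ran from −0.16 to 0.35 in mCre and from −0.29 to 0.24 in WT. Changes within those bounds remain compatible with the data.

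Atf6 (chromosome 1, 170704674 to 170867771, minus strand), the gene of the sensor that is cut into a transcription factor, separated the 4 groups most. It stood at 60.2 and 60.9 CPM in mCre-MP and 41.2 and 44.1 CPM in mCre-TN. In WT it stood at 56.4 and 52.3 CPM in MP and 27.3 and 23.8 CPM in TN. No 2 groups overlapped, and the order from high to low was mCre-MP, WT-MP, mCre-TN and WT-TN. The MP over TN log2 fold change was 0.51 (SE 0.0723, adjusted p = 1.71e-05) in mCre and 1.10 (SE 0.0799, adjusted p = 2.13e-09) in WT, with edgeR.

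Xbp1 (chromosome 11, 5520659 to 5525893, plus strand), the transcription factor gene whose messenger RNA IRE1 splices, stood at 49.2 and 51.1 CPM in mCre-MP and at 38.8 and 39.7 CPM in mCre-TN. In WT the libraries held 42.6 and 42.0 CPM in MP, and 31.9 and 35.1 CPM in TN. Its groups stood in the same order as those of Atf6, without overlap. MP exceeded TN by a log2 fold change of 0.36 (SE 0.0693, edgeR adjusted p = 0.00051) in mCre and 0.33 (SE 0.0737, adjusted p = 0.00171) in WT.

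Among the chaperones, Hspa5 (chromosome 2, 34771970 to 34777547, plus strand) encodes BiP, the ER member of the HSP70 family, which binds unfolded chains and also holds the sensors inactive. The promoter of this gene is printed above. It stood at 671 and 698 CPM in mCre-MP, 550.4 and 571 CPM in mCre-TN, 616 and 577 CPM in WT-MP, and 535 and 515 CPM in WT-TN. The mCre-MP libraries were the highest, the WT-TN libraries the lowest, and neighbouring groups did not overlap. The MP over TN log2 fold change was 0.29 (SE 0.0504, edgeR adjusted p = 0.000176) in mCre and 0.19 (SE 0.0506, adjusted p = 0.00844) in WT; the WT call was lost without WT-MP replicate 1 (adjusted p = 0.119).

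Hsp90b1 (chromosome 10, 86690209 to 86705509, minus strand) encodes GRP94, the HSP90 protein of the ER, which folds integrins and Toll-like receptors. Its promoter window held a pair of ER stress elements. The levels were 527 and 559 CPM in mCre-MP, 366 and 400.5 CPM in mCre-TN, 499 and 579 CPM in WT-MP, and 387 and 428 CPM in WT-TN. Both MP groups lay above both TN groups, and the genotypes overlapped within each subset. The log2 fold change of MP over TN was 0.50 (SE 0.0741, edgeR adjusted p = 0.00017) in mCre and 0.40 (SE 0.0743, adjusted p = 0.00105) in WT. In the annotation 415 exon bases of Hsp90b1 are shared with 1810014B01Rik on the opposite strand, and the strand setting of the counting is not known from the labels. On its own strand Hsp90b1 shares 84 exon bases with Gm15344 and 133 with the microRNA gene Gm25745.

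Sdf2l1 (chromosome 16, 17130138 to 17132383, minus strand) encodes a partner of BiP that works with ER DnaJ proteins. Its libraries held 30.3 and 32.4 CPM in mCre-MP, 15.8 and 17.0 CPM in mCre-TN, 23.7 and 24.9 CPM in WT-MP, and 16.2 and 15.4 CPM in WT-TN. The MP groups were separate from each other and from the TN groups, which overlapped. In mCre the MP over TN log2 fold change was 0.94 (SE 0.0909, edgeR adjusted p = 1.25e-07), and in WT it was 0.63 (SE 0.0971, adjusted p = 4.62e-05).

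Pdia4 (chromosome 6, 47796141 to 47813430, minus strand) encodes the disulphide isomerase ERp72. It had 130.4 and 129 CPM in mCre-MP, 111 and 117 CPM in mCre-TN, 121 and 122 CPM in WT-MP, and 107 and 109.6 CPM in WT-TN. The groups did not overlap, although the steps were small: the log2 fold change of MP over TN was 0.19 (SE 0.0496, edgeR adjusted p = 0.00649) in mCre and 0.16 (SE 0.0507, adjusted p = 0.0178) in WT. Both calls were lost with single libraries left out, the WT call without either WT-MP replicate (adjusted p = 0.0596 and 0.0831) or without WT-TN replicate 1 (adjusted p = 0.0732), and the mCre call without mCre-MP replicate 1 (adjusted p = 0.0548) or mCre-TN replicate 1 (adjusted p = 0.0836). With DESeq2 the WT adjusted p was 0.0527.

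Dnajb9 (chromosome 12, 44205559 to 44210326, minus strand) encodes ERdj4, a BiP cochaperone and a well-known XBP1 target. Its levels were 42.2 and 45.6 CPM in mCre-MP, 46.9 and 49.5 CPM in mCre-TN, 46.3 and 39.7 CPM in WT-MP, and 46.6 and 37.8 CPM in WT-TN. The WT groups overlapped, and in mCre both MP libraries lay below both TN libraries. The MP over TN log2 fold change was −0.13 (SE 0.093, edgeR adjusted p = 0.317) in mCre and 0.04 (SE 0.0972, adjusted p = 0.808) in WT, neither past the threshold. The 95% interval ran from −0.33 to 0.07 in mCre and from −0.17 to 0.25 in WT. For Hspa5 the change was 0.29 (95% interval 0.18 to 0.39) in mCre and 0.19 (0.08 to 0.29) in WT. The difference between Dnajb9 and Hspa5 was not tested.

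In ER-associated degradation, which moves misfolded proteins back to the cytosol, Herpud1 (chromosome 8, 94386438 to 94395377, plus strand) and Sel1l (chromosome 12, 91806043 to 91849157, minus strand) encode parts of the HRD1 ubiquitin ligase complex. Herpud1 stood at 82.4 and 68.2 CPM in mCre-MP, 63.9 and 66.3 CPM in mCre-TN, 79.7 and 72.7 CPM in WT-MP, and 57.0 and 63.6 CPM in WT-TN. Each MP library exceeded each TN library, and the mCre-MP libraries differed most from each other. The log2 fold change of MP over TN was 0.21 (SE 0.0831, edgeR adjusted p = 0.0723) in mCre and 0.33 (SE 0.0858, adjusted p = 0.00855) in WT. The mCre value reached an adjusted p of 0.00386 without mCre-MP replicate 2 and 0.00329 without the expression filter; the WT call was lost without WT-MP replicate 1 (adjusted p = 0.0838) or WT-TN replicate 1 (adjusted p = 0.0907). The interaction test for Herpud1 gave −0.13 (adjusted p = 0.977), so the genotypes were not shown to differ in it.

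Sel1l had 99.4 and 103 CPM in mCre-MP, 99.9 and 97.4 CPM in mCre-TN, 102 and 102 CPM in WT-MP, and 92.2 and 95.3 CPM in WT-TN. Its WT-TN libraries were the lowest, and the other groups overlapped with their neighbours. The MP over TN log2 fold change was 0.04 (SE 0.0506, edgeR adjusted p = 0.594) in mCre and 0.12 (SE 0.0519, adjusted p = 0.097) in WT.

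Per kilobase of annotated exon, the members spanned a wide range of levels. Group means ran from 124 to 162 CPM per kilobase for Hspa5, from 95.1 to 135 for Hsp90b1 and from 45.2 to 54.1 for Pdia4. Herpud1 followed with 25.8 to 32.6, Sdf2l1 with 14.2 to 28.3 and Dnajb9 with 16.5 to 18.9. The transcription factor gene Xbp1 had 10.3 to 15.5 CPM per kilobase and Sel1l 10.95 to 11.9, whereas the sensors had 2.77 to 6.56 (Atf6) and 1.71 to 1.84 (Ern1).

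**Figure D3:**
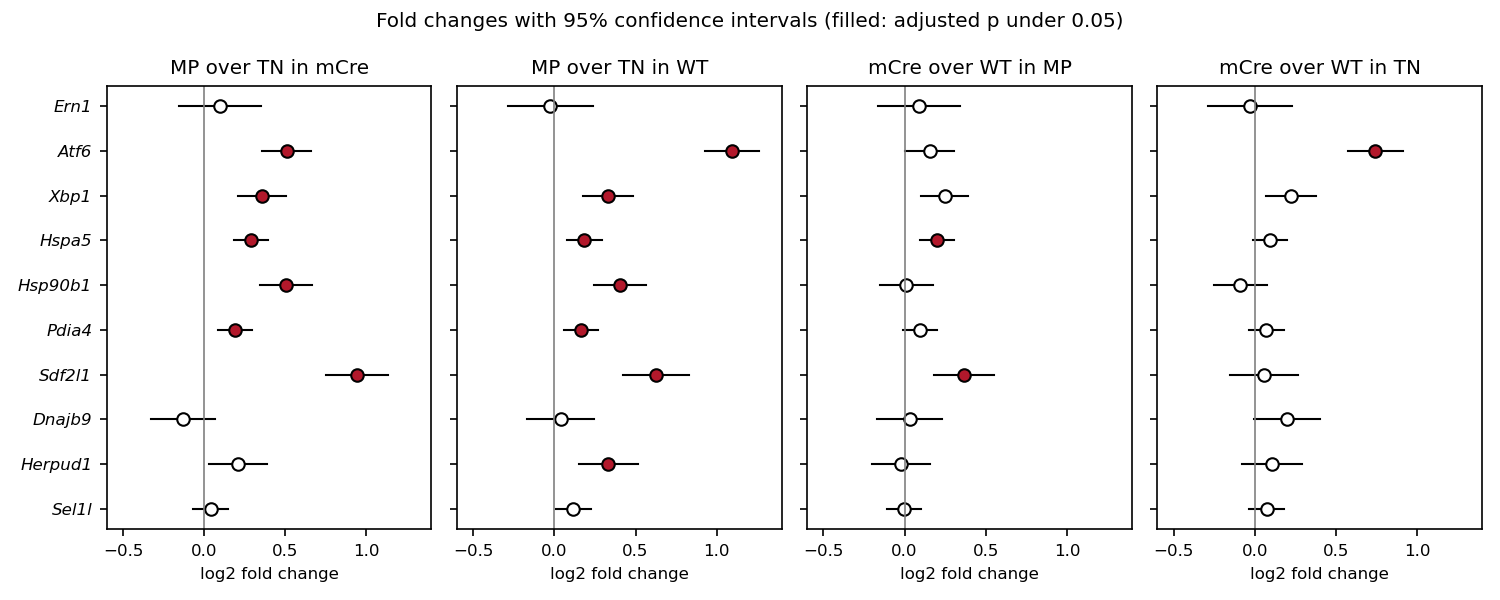
Log2 fold change of each ER stress gene in 4 comparisons, with 95% confidence intervals from the edgeR fit; filled points have an adjusted p under 0.05. In the MP over TN panels 6 (mCre) and 7 (WT) points are filled, in the mCre over WT panels 2 (MP) and 1 (TN).

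Between genotypes, fewer members differed. In MP cells, 2 of 10 members were called higher in mCre, Sdf2l1 and Hspa5, against 2.08% of all genes. Sdf2l1 averaged 31.4 ± 1.4 CPM in mCre-MP and 24.3 ± 0.84 CPM in WT-MP (± SD over 2 libraries each; log2 fold change 0.37, SE 0.0883, edgeR adjusted p = 0.0224). Hspa5 averaged 685 ± 20 CPM in mCre-MP and 597 ± 28 CPM in WT-MP (± SD over 2 libraries each; log2 fold change 0.20, SE 0.0504, edgeR adjusted p = 0.0315). Both calls were lost when any 1 of the 4 MP libraries was left out: the adjusted p then lay between 0.0686 and 0.229 for Sdf2l1 and between 0.06 and 0.354 for Hspa5. DESeq2 kept Hspa5 and not Sdf2l1 (adjusted p = 0.0832). Xbp1 stood just outside the threshold (0.25, SE 0.0693, adjusted p = 0.0515) and passed it with voom (0.0455), the stricter filter (0.0498), no expression filter (0.0297), the replicate block (0.0456) and a fit of the MP groups alone (0.0368), and without either WT-TN replicate (0.0464 and 0.0395). With DESeq2 its adjusted p was 0.186.

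In TN cells, 1 of 10 members was called higher in mCre, Atf6, against 1.55% of all genes. Atf6 averaged 42.7 ± 2.1 CPM in mCre-TN and 25.6 ± 2.5 CPM in WT-TN (SD, n = 2 each), a log2 fold change of 0.74 (SE 0.0808, edgeR adjusted p = 3.16e-05). That call was kept with each library left out and in each other fit. The remaining 9 members had log2 fold changes between −0.09 (Hsp90b1) and 0.22 (Xbp1, adjusted p = 0.111).

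The subset difference of Atf6 itself differed between genotypes. The interaction of genotype and subset, which asks whether MP over TN is larger in mCre than in WT, was −0.59 on the log2 scale (SE 0.108, edgeR adjusted p = 0.03), and 0.13% of all genes were called in it. The WT-TN libraries, at 27.3 and 23.8 CPM, stood furthest from the other 6, which lay between 41.2 and 60.9 CPM. The call was lost with voom (adjusted p = 0.143) and without mCre-MP replicate 2 (0.078), mCre-TN replicate 2 (0.104), WT-MP replicate 1 (0.141) or WT-TN replicate 2 (0.259), with values between −0.60 and −0.48. For the other 9 members the interaction lay between −0.17 (Dnajb9) and 0.31 (Sdf2l1, adjusted p = 0.782) and was not called.

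With subset as covariate, 3 of 10 members were called higher across the 4 mCre libraries than across the 4 WT libraries, against 5.06% of all genes. They were Xbp1 (log2 fold change 0.24, SE 0.0499, edgeR adjusted p = 0.00359), Hspa5 (0.15, SE 0.0371, adjusted p = 0.0132) and Sdf2l1 (0.23, SE 0.0738, adjusted p = 0.0464). Xbp1 kept its call with each library left out. Hspa5 lost it without mCre-MP replicate 2 (adjusted p = 0.0566) or WT-MP replicate 2 (0.0786), and Sdf2l1 with DESeq2 (0.106) and with 6 of the 8 libraries left out in turn (0.0584 to 0.212). Atf6 had the largest value, 0.41, with an adjusted p of 0.0983, and it passed with DESeq2 (0.000185), voom (0.0175), no expression filter (0.00754) and without WT-MP replicate 1 (0.0418). The additive fit pools Atf6 genotype changes of 0.74 in TN and 0.15 in MP, so its value of 0.41 describes neither subset. No member kept all mCre libraries above all WT libraries, which 3.72% of all genes did. That count pools the subsets. It could not be met by a member whose WT-MP libraries lay above its mCre-TN libraries. Xbp1, Atf6, Hspa5, Hsp90b1, Pdia4, Sdf2l1, Herpud1 and Sel1l were such members, so the count does not show whether genotypes separate within a subset.

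The mCre libraries also held fewer macrophage transcripts. The 9 macrophage and monocyte markers summed to between 24.6 and 26.5 CPM in mCre-MP and between 22.7 and 24.5 CPM in mCre-TN, against 30.4 to 47.2 CPM in WT-MP and 33.4 to 44.0 CPM in WT-TN, and 6 of 9 were called lower across subsets. Erythroid and platelet markers summed to 22.4 to 41.4 CPM in mCre-MP and 24.9 to 55.4 CPM in mCre-TN, against 12.005 to 19.6 CPM in WT-MP and 19.7 to 21.1 CPM in WT-TN, and 2 of the 4 tested were called higher. Of the 4 tested plasma cell markers, whose sums are given with the subset results, 1 was called higher in mCre across subsets: Irf4, which T cells also express, averaged 3.75 CPM in mCre-MP and 4.96 CPM in mCre-TN, against 2.02 CPM in WT-MP and 2.64 CPM in WT-TN (log2 fold change 0.87, edgeR adjusted p = 0.0174). The part of these cells in the genotype differences was not tested.

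MiR-29, named in the title of the series, is a microRNA family that pairs with messenger RNAs through bases 2 to 8, its seed. Its mature forms, from RefSeq on GRCm38.p6 and with the seed in capitals, share that seed.
miR-29a-3p: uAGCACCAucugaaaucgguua
miR-29b-3p: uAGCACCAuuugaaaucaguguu
miR-29c-3p: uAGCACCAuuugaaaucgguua

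A seed match of 7 bases, TGGTGCT, was present in the longest annotated 3′ UTR of 2 of the 10 members, Ern1 and Sel1l, against 15.4% of the 11648 tested genes with such a UTR. The site starts at base 646 of the Ern1 UTR and at base 3077 of the Sel1l UTR, and the match is in capitals in the windows below.
Ern1: agttctggatgTGGTGCTggcccagcaca
Sel1l: ggtttgctctcTGGTGCTtaggagcagcc

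Neither gene was called between mCre and WT: the log2 fold change across subsets was 0.03 (SE 0.0869, edgeR adjusted p = 0.87) for Ern1 and 0.03 (SE 0.0371, adjusted p = 0.621) for Sel1l. The members called between genotypes, Atf6, Xbp1, Hspa5 and Sdf2l1, held 0 such matches in their longest UTRs. A match in these letters does not show that the gene is a target.

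The other genes of the pathway were taken from 5 lists. Over all genes, in mCre 17.0% rose and 15.5% fell in MP, and in WT 16.2% rose and 15.6% fell. Of 35 tested ER folding factors outside the members, 10 rose and 2 fell in MP in mCre, and 6 rose and 2 fell in WT (medians 0.12 and 0.06). The share that rose, 28.6% in mCre and 17.1% in WT, was above that of all genes in mCre and near it in WT. Txndc5, a disulphide isomerase, averaged 216 ± 20 CPM in mCre-MP and 86.2 ± 4.8 CPM in mCre-TN, and 219 ± 0.83 CPM in WT-MP and 82.0 ± 2.8 CPM in WT-TN (SD, n = 2 each). Its log2 fold change was 1.32 in mCre and 1.41 in WT. Pdia3, the isomerase ERp57 that also serves in MHC class I loading, rose by 0.38 and 0.34, and the oxidase gene Ero1lb by 0.46 in mCre. The lectin chaperone genes Calr (0.26 in mCre, 0.05 in WT) and Canx (0.18 and 0.10), and the BiP exchange factor gene Hyou1 (0.17 and 0.09), passed the test in mCre and not in WT. Their interaction tests did not pass (adjusted p = 0.782, 0.978 and 0.978). Creld2 passed in neither (0.22 and 0.20), and Dnajc10, a reductase gene, fell in WT (−0.27).

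**Figure D4:**
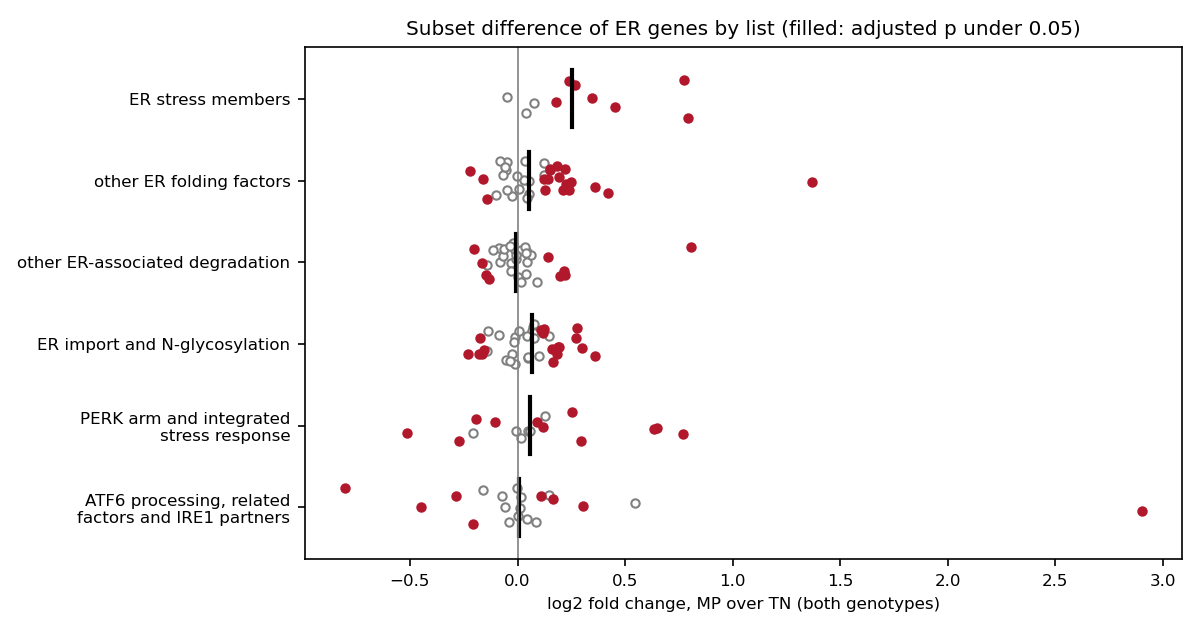
Log2 fold change of MP over TN, with genotype as covariate, for each tested gene of 6 lists; filled points have an adjusted p under 0.05, black bars are list medians, and vertical scatter within a list has no meaning. The 10 ER stress genes have a median of 0.25, and the other 5 lists have medians between −0.01 and 0.07.

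Of 32 tested degradation factors, 5 rose and 3 fell in MP in mCre, and 3 rose and 2 fell in WT (medians −0.0031 and −0.02). The share that rose was 15.6% in mCre, near the 17.0% of all genes, and 9.38% in WT, below their 16.2%. Ube2g2, an ER-linked ubiquitin-conjugating enzyme, averaged 113 ± 2.3 CPM in mCre-MP and 62.9 ± 1.3 CPM in mCre-TN, and 109 ± 4.1 CPM in WT-MP and 64.2 ± 3.4 CPM in WT-TN (SD, n = 2 each; log2 fold changes 0.84 and 0.77). The lectin gene Os9 rose by 0.21 and 0.23, Herpud2 by 0.25 in mCre, and Edem1, which trims mannose from misfolded glycoproteins, fell in WT (−0.27). Syvn1, the HRD1 ligase gene itself, had −0.09 in mCre and −0.07 in WT and did not pass. Of 38 tested import and N-glycosylation genes, 11 rose and 3 fell in mCre and 11 rose and 1 fell in WT (medians 0.05 in each), so that 28.9% rose in each genotype, against 17.0% of all genes in mCre and 16.2% in WT. Srpr, a subunit gene of the signal recognition particle receptor, rose by 0.34 and 0.25, and the oligosaccharyltransferase genes Krtcap2 by 0.41 and 0.31 and Rpn1 by 0.34 in mCre.

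The list of the PERK arm and the wider integrated stress response did not move one way. Of 17 tested genes, 5 rose and 2 fell in MP in mCre, and 3 rose and 3 fell in WT (medians 0.06 and 0.08). In WT the 17.6% in each direction was near the shares of all genes, and in mCre 29.4% rose and 11.8% fell. Eif2ak3, the gene of PERK, averaged 38.7 ± 0.75 CPM in mCre-MP and 46.7 ± 1.3 CPM in mCre-TN, and 42.3 ± 0.82 CPM in WT-MP and 51.4 ± 5.6 CPM in WT-TN (SD, n = 2 each). It fell by 0.27 on the log2 scale in both genotypes (edgeR adjusted p = 0.00832 in mCre and 0.00932 in WT). Ddit3, the gene of CHOP, a transcription factor of prolonged stress, rose by 0.25 and 0.26, whereas Atf4 had 0.06 and 0.12 and did not pass in either. Asns, the asparagine synthetase gene and an ATF4 target, rose by 0.69 and 0.90; Eif2ak2, the interferon-induced kinase PKR, rose by 0.64 and 0.63, and Ddit4 fell by 0.63 and 0.40. Among 20 tested genes of ATF6 processing, related factors and IRE1 partners, 4 rose and 3 fell in mCre and 2 rose and 1 fell in WT (medians −0.01 and 0.02), and the share that rose was above that of all genes in mCre and below it in WT. Mbtps1, which encodes the protease that makes the first cut in ATF6, fell (−0.26 and −0.31). Prdm1, the gene of BLIMP-1 and one of the plasma cell markers, rose (3.34 and 2.44), and the adaptor gene Nck1 rose (0.25 and 0.37).

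Between genotypes these lists showed few calls. Across subsets, 5.06% of all genes were called higher in mCre and 5.97% lower. The list of the PERK arm and integrated stress response also holds other kinase genes, such as Eif2ak2. Of its 17 tested genes, 3 (17.6%) were higher and 1 (5.88%) was lower. Asns averaged 19.2 ± 0.27 CPM in mCre-MP and 11.97 ± 1.3 CPM in mCre-TN, against 9.14 ± 1.3 CPM in WT-MP and 4.82 ± 1.2 CPM in WT-TN (SD, n = 2 each; log2 fold change 1.16, edgeR adjusted p = 2.8e-07). Eif2ak2 (0.49) and Ddit3 (0.26, adjusted p = 0.00842) were higher too, and Cebpg was lower (−0.20). Eif2ak3, the gene of PERK (−0.13), and Atf4 (0.01) were not called. Of the 35 folding factors, Canx was higher (0.12) and Tmx1 (−0.15) and Sdf2 (−0.17) were lower. Their shares, 2.86% and 5.71%, rest on counts too small to tell from the shares of all genes. In MP cells alone, Calr (0.28, adjusted p = 0.0151) and Manf (0.27, adjusted p = 0.0337) were higher in mCre. Stub1 (−0.21) was the 1 degradation gene called, and Srp72 (0.13) and Sec62 (−0.13) were the import genes. These counts too are too small to tell from the shares of all genes.

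The expression of Hspa5 over the 8 libraries was most like that of Cd69, among 8651 genes outside the members with a mean log2 CPM of at least 3 (Pearson r of log2 CPM 0.99). Cd69, an early activation marker, averaged 149 CPM in mCre-MP, 102 CPM in mCre-TN, 113 CPM in WT-MP and 90.1 CPM in WT-TN. Tbc1d1 (0.984), the kinase gene Pim1 (0.981), Lrrc61 (0.976) and Zcchc2 (0.973) followed. Of the members, Xbp1 (0.941), Pdia4 (0.94) and Sdf2l1 (0.937) were closest to Hspa5, and Dnajb9 (0.172) and Ern1 (0.294) least close. These are descriptions over 8 libraries that share subset and genotype.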

How the data were processed

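The deposited values are unnormalised counts of reads for each gene symbol in 8 libraries, which the authors made with Trim Galore, HISAT2 and featureCounts on mm10, per the submitters' processing notes. Tool versions, the annotation, the strand setting and the handling of multi-mapping reads are not stated in the labels. Total counts per library lay between 13479586 and 30057658, and 0 lines named no gene.

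All 8 libraries entered 1 fit of 4 group means with edgeR 4.0.16 (quasi-likelihood F test, robust dispersions, TMM scaling, expression filter) in R 4.3.3; the comparisons across subsets or genotypes used an additive model. P-values were two-sided and adjusted by the Benjamini-Hochberg method over the 12313 genes tested. CPM used TMM-scaled library sizes, and log2 CPM a prior count of 2. Alternatives were DESeq2 1.42.0, voom in limma 3.58.1, other scalings and filters, a replicate block, fits of the compared groups alone, and each library left out.

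The members and lists were chosen with earlier results of these data known. Named list genes were the 3 called genes with the smallest p per list and comparison plus 8 usual readouts of the response. GENCODE M21 (GRCm38, another name of mm10) gave coordinates and exon lengths, and all 29426 symbols matched it.

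The labels do not say whether the 2 libraries of a group came from separate mice, so p-values measure the spread between libraries, which may be technical. Replicates differed by more than sampling noise (chi-square per degree of freedom 4.13 to 6.12). Tested on counts simulated with changes in 100 genes per fold size, the procedure recovered 68% of 1.5-fold changes for MP over TN in WT and 63% for mCre over WT in MP. Of 2-fold changes it recovered 81% and 85%. In those comparisons 9 and 16 unchanged genes were called falsely.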

Additional observations from a re-analysis of the deposited data

Results flagged for a closer look

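The Atf6 subset difference was tested as different between genotypes: the interaction of genotype and subset was −0.587 on the log2 scale, the MP over TN change being 0.51 in mCre and 1.10 in WT. The libraries stood at 60.2 and 60.9 CPM in mCre-MP and 41.2 and 44.1 CPM in mCre-TN, against 56.4 and 52.3 CPM in WT-MP and 27.3 and 23.8 CPM in WT-TN. The interaction passed with edgeR (adjusted p = 0.03) and DESeq2 and not with voom (adjusted p = 0.143). It was lost in 4 of the 8 fits with a library left out (adjusted p 0.078 to 0.259).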

How the results depend on the processing

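Of the 10 members, the number called was the same in each other fit and with each library left out for MP over TN across genotypes (7) and for mCre over WT in TN (1). With 1 library left out in turn, it ranged from 5 to 7 for MP over TN in mCre, from 4 to 7 for MP over TN in WT, from 0 to 3 for mCre over WT in MP, from 1 to 3 for mCre over WT across subsets and from 0 to 1 for the interaction. DESeq2 called 1 in mCre over WT in MP, against 2 with edgeR. Voom called 0 in the interaction (2 at an unadjusted p under 0.05), against 1 with edgeR and 1 with DESeq2. The cause was not tested.

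Deviations from group means, across genes, correlated between libraries of the same replicate number at 0.0769 for mCre-MP with mCre-TN and 0.109 for WT-MP with WT-TN, and at −0.0446 to −0.0139 for the 4 pairs of groups across genotypes. The numbers were not taken to pair the libraries. With the replicate block the members called numbered 6 for MP over TN in mCre, 7 in WT, 3 for mCre over WT in MP, 1 in TN, 3 across subsets and 1 in the interaction. That block is a single term shared by both genotypes, so it cannot represent a pairing of MP with TN within a genotype. Such a pairing was not tested.

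The signs that turned did so with a library left out, for values that passed the threshold in no fit. With libraries left out in turn, MP over TN ranged from −0.040 to 0.28 (mCre), −0.098 to 0.057 (WT) and −0.025 to 0.10 (across genotypes) for Ern1. In WT it ranged from −0.11 to 0.20 for Dnajb9 and from −0.041 to 0.14 for Calr. In MP cells, mCre over WT ranged from −0.098 to 0.12 for Hsp90b1, −0.17 to 0.11 for Herpud1, −0.038 to 0.013 for Sel1l and −0.081 to 0.14 for Dnajb9. In TN cells it ranged from −0.20 to 0.11 for Ern1. Across subsets it ranged from −0.020 to 0.091 for Ern1, −0.010 to 0.11 for Herpud1 and −0.0086 to 0.021 for Atf4. The interaction ranged from −0.050 to 0.076 for Xbp1, −0.027 to 0.29 for Ern1, −0.012 to 0.20 for Hsp90b1, −0.018 to 0.046 for Pdia4 and −0.28 to 0.00064 for Herpud1.

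With 2 libraries a group, 55% of simulated 1.5-fold changes were recovered in the interaction and 78% in mCre over WT across subsets. Within a subset or genotype, Ern1, the least abundant member, had the widest intervals.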
